A study of Homo sapiens with 9 samples.

Results

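The heat shock proteins and their DNAJ cochaperones were followed in HaCaT cells, an immortalised line of human keratinocytes, across 3 treatments. Members were the protein-coding rows of the deposited count table whose symbol begins with HSPA, HSPB, HSPD, HSPE, HSPH, HSP90A, DNAJA, DNAJB or DNAJC. The endoplasmic reticulum chaperone genes HSPA5, DNAJB9, DNAJB11 and DNAJC3 were left out, as was HSPBAP1, so the rule left out 5 genes. This gave 72 rows with 71 symbols, since HSPA14 stands on 2 rows, out of 58676 rows in the table and 19821 protein-coding rows. Of these, 58 passed the filter on low counts and were tested, 14 were not tested, and 7 of those 14 had no read in any library.

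Cells had been kept for 14 h in DMEM with 1% DMSO as the control, with 250 nM CDDO-Me or with 10 µM PRL-295, with 3 libraries per group. Both agents are activators of the transcription factor NRF2. CDDO-Me, or bardoxolone methyl, is a triterpenoid that reacts with thiols. PRL-295, for which only the code name is used, belongs to the non-electrophilic activators of the study's title. The groups share the cell line, the medium and the time. The labels name DMSO for the control group only and do not say whether replicates were separate cultures, so p-values measure the spread between these samples, which may be technical.

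Heat shock proteins keep other proteins folded. HSP70 proteins bind unfolded stretches and release them through cycles of ATP hydrolysis; DNAJ proteins (J proteins) bring clients and trigger the hydrolysis, and nucleotide exchange factors such as the HSP110 proteins, or HSPBP1, reset the cycle. HSP90 acts later, on nearly folded clients such as kinases and receptors, and the small heat shock proteins hold damaged proteins without ATP. Many of these genes are induced together by the transcription factor HSF1 when electrophiles, heat or other insults damage proteins, while others, such as HSPA8, are made at a high level in unstressed cells.

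Libraries held 23383800 to 32942156 counted reads, and the members took 1.30% to 1.94% of them. The keratinocyte markers fixed for the check were present, 9 of 9 at 1 CPM (counts scaled to library size) or more in every library. The summed level of fibroblast, melanocyte, immune and endothelial markers reached at most 13.1, 7.99, 0.567 and 2.56 CPM in any library. Of the genes in those lists 3, 1, 2 and 1 had no read in any library. The summed keratinocyte level differed between the groups, at 14319 to 15619 CPM in DMSO, 18048 to 20728 in CDDO-Me and 11750 to 12640 in PRL-295, and its part in the results was not tested. The NRF2 targets HMOX1, NQO1, TXNRD1 and GCLM were called higher with both compounds, 4 of 4 each, HMOX1 with a log2 fold change of 5.02 with CDDO-Me and 1.92 with PRL-295. In RNA from whole cultures, a change in the RNA of every cell cannot be told apart from a change in the share of cells that make it. Libraries also differed in how strongly their counts followed the GC content of the transcripts: across the 10254 genes averaging 5 CPM or more, the correlation of GC content with how far a library lay from the average of the 9 was 0.415 to 0.500 in the DMSO libraries. It was 0.0485, -0.717 and -0.328 in CDDO-Me 1 to 3 and -0.606, 0.347 and -0.243 in PRL-295 1 to 3. The trend therefore differs between the control and most compound libraries, though PRL-295 2 lies near the DMSO libraries. CDDO-Me 2 stands farthest from them. Corrected values are given for many of the members named. CDDO-Me 1 differed in another way, with 14543 genes detected, against 17821 to 23271 in the other libraries. It was the lowest of the 9 libraries for 29.5% of all genes tested and 22.4% of the members.

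Under DMSO the family ran from the most abundant cytosolic chaperones to genes at the limit of detection. Of the tested members the lowest per gene length was DNAJC22, at 0.167 ± 0.0763 FPKM. On the FPKM scale (fragments scaled to gene length and library size, as deposited), the highest was HSP90AB1, the constitutive HSP90, at 872 ± 145 (SD, n = 3). Next came HSPA8, the constitutive HSP70, at 836 ± 92.1 FPKM. The DMSO ranges of these genes overlapped, so their order is not resolved, and together they made up 45.7% to 51.3% of all member reads in the DMSO libraries. HSPB1, the small heat shock protein HSP27, stood at 300 ± 66.1 FPKM and HSP90AA1, the inducible HSP90, at 298 ± 14.0 FPKM, again with overlapping ranges.

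The stress-inducible genes HSPA1A and HSPA1B, unlike HSPA6, were already well expressed in the control. HSPA1A stood at 213 ± 17.2 FPKM and its near-identical neighbour HSPA1B at 92.3 ± 12.8 FPKM under DMSO. HSPA6, an HSP70 gene that is usually silent until cells are stressed, stood at 0.545 ± 0.251 FPKM. The most abundant member of each of the other groups was HSPD1 (the mitochondrial chaperonin HSP60) at 167 ± 12.3 FPKM, DNAJA1 at 94.4 ± 16.2 FPKM, DNAJB1 (the main J partner of inducible HSP70) at 90.4 ± 2.20 FPKM, DNAJC5 (the cysteine string protein of secretory vesicles) at 51.5 ± 6.91 FPKM, HSPA4 (an HSP110 protein) at 45.3 ± 2.25 FPKM and HSPA12A (a distant HSP70 relative) at 4.25 ± 0.233 FPKM. HSPBP1 stood at 68.2 ± 1.87 FPKM.

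**Figure D1:**
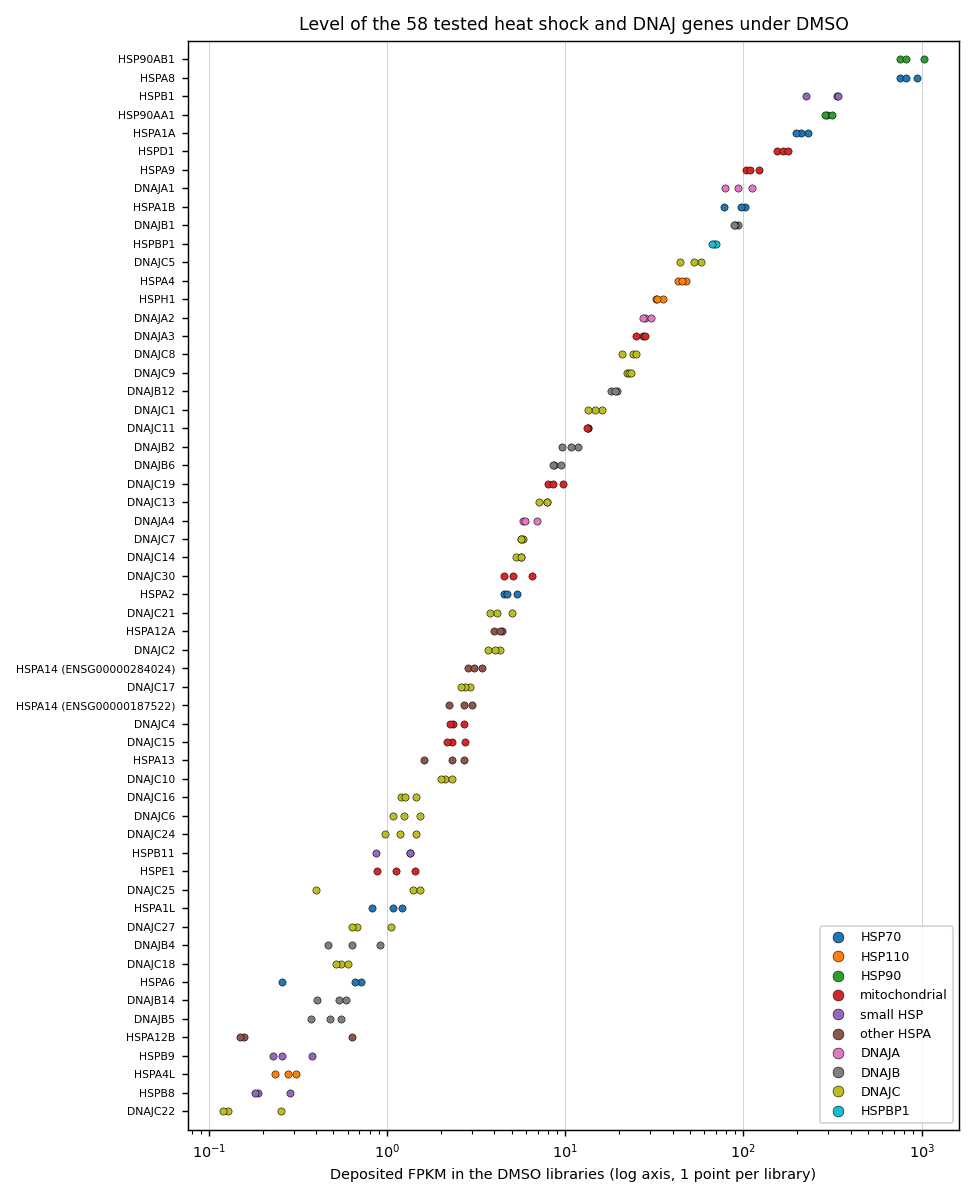
Level of the 58 tested genes under DMSO as deposited FPKM on a log axis, with 1 point per DMSO library, ordered by their mean and coloured by role. HSP90AB1 and HSPA8 lead, with means of 872 and 836 FPKM, and the stress-inducible HSPA6 lies near the bottom at 0.545 FPKM.

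HSPE1, the HSP10 partner of HSPD1 in the same chaperonin, was counted at 1.15 ± 0.282 FPKM, far below HSPD1. Its value is uncertain as a level: 26 pseudogene rows carry its name, 9.71% of its exonic bases are shared with the readthrough gene HSPE1-MOB4, and 14.2% lie under HSPD1 on the other strand, with the strand setting of the counting not stated. HSPE1-MOB4 itself had no read in any library.

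How reads were divided between HSPA1A (chr6:31815464-31817946, hg38, plus strand) and HSPA1B (chr6:31827735-31830255, plus strand) is uncertain too. Their coding sequences in GENCODE 29 have 1923 bases each and differ at 4, which is 99.8% identity, and only reads over those bases or outside the coding sequence can tell them apart. The substitutions, HSPA1A base first and counted from 1 at the A of the start codon, are G1710T, G1860C, C1905T and A1920G. The sequences are given because every separate value for these genes rests on them and on the untranslated ends, with the differing bases in capitals.
HSPA1A, coding bases 1690 to 1730: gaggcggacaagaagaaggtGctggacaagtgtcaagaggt
HSPA1B, coding bases 1690 to 1730: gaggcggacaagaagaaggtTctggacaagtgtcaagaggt
HSPA1A, coding bases 1840 to 1880: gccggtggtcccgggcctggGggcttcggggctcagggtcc
HSPA1B, coding bases 1840 to 1880: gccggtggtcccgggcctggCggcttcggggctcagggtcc
HSPA1A, coding bases 1885 to 1923: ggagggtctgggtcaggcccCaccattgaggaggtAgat
HSPA1B, coding bases 1885 to 1923: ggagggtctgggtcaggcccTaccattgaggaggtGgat
HSPA1A took 67.8% to 73.2% of the reads of the pair in the 9 libraries. By comparison, the coding sequence of HSPA1A is 81.4% identical to HSPA1L, 80.9% to HSPA6, 80.6% to HSPA2 and 73.9% to HSPA8, and HSP90AA1 and HSP90AB1 share 76.0%. HSPA1B also shares 36.5% of its exonic bases with the overlapping gene AL671762.1 on the same strand.

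Promoters were searched for the heat shock element that HSF1 binds, as 3 adjoining units of GAA and its reverse TTC in turn, each parted by any 2 bases, starting with either. In RefSeq windows from 250 bases before to 50 after the gene start (GRCh38.p14), 62 members had an entry, and 4 of them, DNAJA1, DNAJB6, HSPA6 and HSPA8, held the element (6.45%, against 0.490% of all 35116 windows). The antioxidant response element core TGACNNNGC on either strand was in 11 of 62 (17.7%, against 13.3% of all windows), TATAAA in 10 (16.1%, against 11.5%) and CCAAT in 21 (33.9%, against 34.6%), also on either strand. Some RefSeq starts, such as that of HSPA12A, lie away from the start of the deposited gene model. Only 1 window was searched per member, so other starts of the same gene were not covered. That of HSP90AA1, chr14:102139700-102139999, lies at the outermost start of its gene model, and starts further inside it were not searched. Among members named below, the heat shock element letters were not found in the windows of HSP90AA1, HSPH1, HSPA1A, HSPA1B or DNAJB1, and TGACNNNGC was found in those of HSP90AB1, HSPA6, HSPB1, HSPBP1, DNAJA2, DNAJB6, DNAJC10 and DNAJC11 and of 3 untested members. The windows of all genes were not limited to protein-coding genes or to 1 per symbol, as those of the members were. The shares above therefore set unlike groups side by side. A match or its absence in this window describes letters only. The 250 bases before the start are given for HSPA8, which holds the element at 2 places, for HSPA6, which holds it at bases -74 to -62, and for the HSPA1A and HSPA1B pair, which hold TATAAA at -30 to -25 and -29 to -24. Capitals mark the heat shock element in HSPA8 and HSPA6 and TATAAA in HSPA1A and HSPA1B.
HSPA8, chr11:123062137-123062386, minus strand: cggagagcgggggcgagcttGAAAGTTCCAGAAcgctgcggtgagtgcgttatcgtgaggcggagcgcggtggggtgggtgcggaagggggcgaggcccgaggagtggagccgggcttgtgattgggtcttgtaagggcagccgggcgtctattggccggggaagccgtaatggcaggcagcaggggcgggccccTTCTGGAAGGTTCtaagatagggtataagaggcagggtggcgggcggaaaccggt
HSPA6, chr1:161524290-161524539, plus strand: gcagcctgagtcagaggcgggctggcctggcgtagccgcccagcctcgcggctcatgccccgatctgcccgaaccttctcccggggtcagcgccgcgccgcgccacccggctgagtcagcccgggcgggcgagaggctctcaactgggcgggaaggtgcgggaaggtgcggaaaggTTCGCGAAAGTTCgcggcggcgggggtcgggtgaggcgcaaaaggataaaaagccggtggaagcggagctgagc
HSPA1A, chr6:31815293-31815542, plus strand: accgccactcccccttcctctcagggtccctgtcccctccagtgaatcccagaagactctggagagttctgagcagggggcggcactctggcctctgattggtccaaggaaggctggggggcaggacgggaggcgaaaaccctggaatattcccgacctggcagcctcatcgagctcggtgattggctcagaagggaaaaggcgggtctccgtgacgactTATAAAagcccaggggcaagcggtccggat
HSPA1B, chr6:31827488-31827737, plus strand: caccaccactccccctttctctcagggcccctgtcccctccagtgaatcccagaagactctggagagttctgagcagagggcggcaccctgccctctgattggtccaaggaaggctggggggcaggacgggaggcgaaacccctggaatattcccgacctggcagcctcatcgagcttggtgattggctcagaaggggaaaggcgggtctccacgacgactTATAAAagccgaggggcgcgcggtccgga

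The first comparison asked how the chaperone genes stand in cells given CDDO-Me. With CDDO-Me, 6 members rose: the HSP90 gene HSP90AA1, the HSP110 gene HSPH1, the HSP70 relative HSPA12A, HSPB11, and the J protein genes DNAJC10 and DNAJC18. Their rises lay between 1.85-fold and 2.62-fold. HSPBP1, an exchange factor of HSP70, fell to 0.729 of its DMSO level. The inducible HSP70 genes and DNAJB1, the usual signs of a heat shock response, did not pass the test as counted. The 7 called members are 12.1% of the 58 tested, where 9.22% of all 16239 genes tested were called. The 6 risen members are 10.3%, against 4.65% of all genes, and the 1 fallen member is 1.72%, against 4.57%. Calls are from edgeR's quasi-likelihood test with Benjamini-Hochberg adjustment over all genes tested, at 0.05.

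All 3 CDDO-Me libraries lay above all 3 DMSO libraries for 16 members (27.6%, against 15.5% of all genes), and below them for 8 (13.8%, against 16.3%). The median log2 fold change of the 58 members was 0.26, beside 0.0078 over all genes tested, and 0.099 once GC and length trends had been removed from each library (the GC and length correction). Values above 0 were found for 40 members (69.0%, against 50.5% of all genes). At an unadjusted p under 0.05 in edgeR, 15 members were higher and 6 lower (25.9% and 10.3%, against 13.4% and 12.6% of all genes). The members' transcripts had a median GC content of 46.7%, against 49.2% over all genes tested. The count of risen members moved with single libraries: it fell to 1 when any DMSO library was left out, to 2 and 3 for CDDO-Me 2 and 3, and to 3 for PRL-295 3, and it came to 13 for CDDO-Me 1 and 10 for PRL-295 2. The share of all genes called higher moved with it: it was 1.17% to 1.81% without a DMSO library, 1.84% and 2.88% without CDDO-Me 2 and 3, 2.39% without PRL-295 3, 9.08% without CDDO-Me 1 and 6.84% without PRL-295 2. The PRL-295 libraries enter through the shared estimate of the spread, the filter and the scaling. The HSPBP1 call remained in 2 of 9 such fits, those without CDDO-Me 1 or PRL-295 2.

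**Figure D2:**
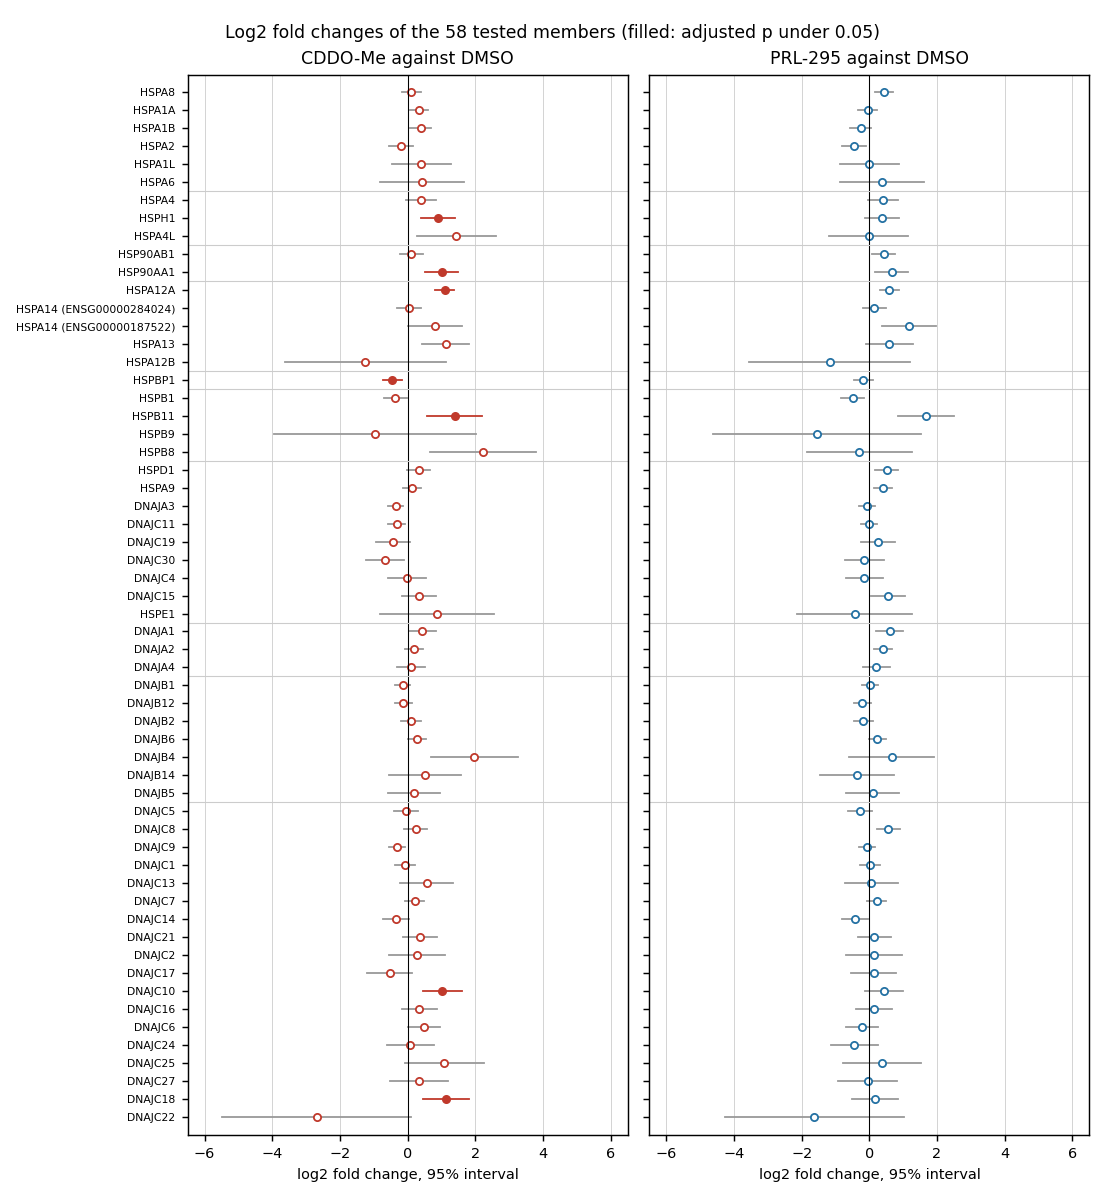
Log2 fold change of each of the 58 tested members with its 95% interval, for CDDO-Me against DMSO (left) and PRL-295 against DMSO (right), grouped by role; filled points passed an adjusted p of 0.05. The filled points are the 6 risen genes and HSPBP1 on the left, and there is none on the right.

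HSPA12A (ENSG00000165868, chr10:116671192-116742574, minus strand) had the smallest p of the family. HSPA12A stood at 26.5, 30.4 and 28.9 CPM in DMSO 1 to 3, at 57.7, 63.9 and 61.6 CPM in CDDO-Me 1 to 3, and at 42.7, 42.2 and 44.0 CPM in PRL-295 1 to 3. The 3 groups did not overlap, and PRL-295 lay between DMSO and CDDO-Me. With CDDO-Me the rise was 2.14-fold (log2 1.09, SE 0.13, edgeR adjusted p = 0.000617). The call remained in all 17 alternatives that gave a value, including each of the 9 left-out libraries and the GC and length correction, with log2 fold changes of 0.95 to 1.14. About 5.92% of its exonic bases lie under other genes on the opposite strand (ENO4 and AC016825.1).

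HSP90AA1 (ENSG00000080824, chr14:102080738-102139699, minus strand) is the HSP90 gene that stress induces. Its values were 1516, 1518 and 1629 CPM in DMSO 1 to 3, 2083, 4355 and 2956 CPM in CDDO-Me 1 to 3, and 2933, 2082 and 2342 CPM in PRL-295 1 to 3. Every compound library lay above every DMSO library, and CDDO-Me 2 was the highest of all. The rise with CDDO-Me was 2.01-fold (log2 1.01, SE 0.22, edgeR adjusted p = 0.0188). It was 0.68 on the log2 scale without CDDO-Me 2 (edgeR adjusted p = 0.0421), and the call was lost without any one of the DMSO libraries; over 17 alternatives the adjusted p ran from 2.80e-11 to 0.0872. HSP90AB1, its constitutive counterpart, had a log2 fold change of 0.11 (95% interval -0.23 to 0.44).

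HSPH1 (ENSG00000120694, chr13:31134974-31162388, minus strand) encodes the HSP110 exchange factor that works with HSP70 and DNAJB1 to take protein aggregates apart. It stood at 290, 274 and 273 CPM in DMSO 1 to 3, at 387, 667 and 492 CPM in CDDO-Me 1 to 3, and at 480, 253 and 359 CPM in PRL-295 1 to 3. All CDDO-Me libraries lay above DMSO, while PRL-295 2 lay below all DMSO libraries. The rise with CDDO-Me was 1.85-fold (log2 0.89, SE 0.23, edgeR adjusted p = 0.0368). It was 0.64 without CDDO-Me 2 and 0.38 after GC and length correction on the log2 scale, and it was called in 8 of 17 alternatives, with adjusted p from 1.87e-08 to 0.131. The other HSP110 genes did not pass in the edgeR test: HSPA4 had a log2 fold change of 0.40 (95% interval -0.035 to 0.84) and HSPA4L of 1.44 (0.28 to 2.60), which became 0.083 and 0.85 after the correction. HSPA4L was called higher by DESeq2 (adjusted p = 0.0321) and by the 6-library fit (edgeR adjusted p = 0.0456), while limma called no HSP110 gene.

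Among the cytosolic HSP70 genes, 0 of 6 were called with CDDO-Me by edgeR, DESeq2 or limma, where edgeR called 9.22% of all genes. In the edgeR test 2, HSPA1A and HSPA1B, were higher at an unadjusted p under 0.05, against 13.4% of all genes. HSPA1A stood at 565, 526 and 487 CPM in DMSO 1 to 3, at 771, 608 and 620 CPM in CDDO-Me 1 to 3, and at 475, 570 and 475 CPM in PRL-295 1 to 3. The CDDO-Me libraries all lay above the DMSO libraries, by a small margin in CDDO-Me 2 and 3. Its log2 fold change was 0.34 (SE 0.12, edgeR adjusted p = 0.109). HSPA1B stood at 253, 247 and 194 CPM in DMSO 1 to 3, at 354, 288 and 265 CPM in CDDO-Me 1 to 3, and at 197, 209 and 177 CPM in PRL-295 1 to 3. As with HSPA1A, the CDDO-Me and DMSO groups did not overlap; the log2 fold change was 0.39 (SE 0.14, edgeR adjusted p = 0.111). The sum of the pair, which does not depend on how the counted reads were divided between them, was 758 ± 69.6 CPM in DMSO, 969 ± 135 CPM in CDDO-Me and 701 ± 68.5 CPM in PRL-295 (SD, n = 3).

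Both HSP70 genes are rich in GC, 59.7% in HSPA1A and 58.7% in HSPA1B, and the DMSO libraries were those whose counts rose most with GC content. After GC and length correction HSPA1A had a log2 fold change of 0.64 (edgeR adjusted p = 0.00231) and HSPA1B of 0.68 (edgeR adjusted p = 0.0118) with CDDO-Me, so both passed. Both were called in 2 of 17 alternatives, those with the correction; the adjusted p ran from 0.00147 to 0.273 for HSPA1A and from 0.00171 to 0.303 for HSPA1B. Whether the members' changes come from the GC trend was not tested beyond this correction.

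HSPA8 and HSPA6, which hold the heat shock element printed above, did not pass. HSPA8 stood at 3610, 3993 and 4509 CPM in DMSO 1 to 3 and at 3729, 4759 and 4585 CPM in CDDO-Me 1 to 3, and the groups overlapped. Its log2 fold change was 0.11 (95% interval -0.16 to 0.38). HSPA6 stood between 0.615 and 2.34 CPM in every library, and the groups overlapped. HSPA2 had a log2 fold change of -0.19 (95% interval -0.55 to 0.16) and HSPA1L of 0.41 (-0.46 to 1.28).

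HSPB11 (ENSG00000081870, chr1:53916574-53945929, minus strand), named with the small heat shock proteins but known as the intraflagellar transport subunit IFT25, had the largest fold of the 6. It stood at 4.30, 2.83 and 4.34 CPM in DMSO 1 to 3, at 6.48, 14.98 and 8.51 CPM in CDDO-Me 1 to 3, and at 16.9, 11.6 and 7.997 CPM in PRL-295 1 to 3. All compound libraries lay above DMSO, with a wide spread within each. The rise with CDDO-Me was 2.62-fold (log2 1.39, SE 0.37, edgeR adjusted p = 0.0428), and it was called in 8 of 17 alternatives, with adjusted p from 0.000415 to 0.164. Among the true small heat shock proteins HSPB1 had a log2 fold change of -0.37 (95% interval -0.71 to -0.03, edgeR adjusted p = 0.162), and of -0.025 after GC and length correction. HSPB8, the partner of BAG3 in clearing damaged proteins, stood at 0.527, 0.522 and 0.812 CPM in DMSO and at 5.98, 1.56 and 1.23 CPM in CDDO-Me 1 to 3, with edgeR adjusted p = 0.0745. DESeq2 called HSPB8 higher (adjusted p = 0.0122). HSPB9 lay between 0 and 0.738 CPM in the 9 libraries.

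The mitochondrial chaperones and J proteins held no call with CDDO-Me, 0 of 9 tested by edgeR, where 9.22% of all genes were called. At an unadjusted p under 0.05 there were 3, DNAJA3, DNAJC11 and DNAJC30, all with lower values, where 12.6% of all genes were lower. DESeq2 and limma each called DNAJA3 lower. HSPD1 had a log2 fold change of 0.33 (95% interval -0.01 to 0.67) and HSPA9, the mitochondrial HSP70, of 0.13 (-0.15 to 0.40); after GC and length correction they stood at 0.14 and -0.10. DNAJA3, the J partner of HSPA9, lay just outside the threshold, at -0.36 on the log2 scale (edgeR adjusted p = 0.0569), with 190, 178 and 196 CPM in DMSO and 153, 140 and 149 CPM in CDDO-Me 1 to 3. DNAJC19, a J protein of the mitochondrial import motor, had a log2 fold change of -0.42 as counted and of -0.94 after GC and length correction, where it was called lower. HSPE1 had a log2 fold change of 0.87 with a 95% interval of -0.82 to 2.55, and its highest value, 9.41 CPM, was in CDDO-Me 2. Without that library its log2 fold change turned to -0.66.

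No DNAJA or DNAJB gene passed with CDDO-Me in the edgeR test, of 3 and 7 tested, where 9.22% of all genes passed. At an unadjusted p under 0.05 there were 3, DNAJA1, DNAJB4 and DNAJB6, with higher values, where 13.4% of all genes were higher. DESeq2 called 1, DNAJB4, and limma 0. DNAJA1 stood at 212, 256 and 301 CPM in DMSO 1 to 3 and at 250, 426 and 364 CPM in CDDO-Me 1 to 3, with a log2 fold change of 0.43 (95% interval 0.03 to 0.83), and of 0.11 after GC and length correction. DNAJB1 stood at 335, 332 and 324 CPM in DMSO and at 309, 290 and 296 CPM in CDDO-Me 1 to 3. Every CDDO-Me library of DNAJB1 lay slightly below every DMSO library, and the log2 fold change of -0.15 (95% interval -0.37 to 0.08) did not pass and became 0.04 after GC and length correction. DNAJB4 lay just outside the threshold, with a log2 fold change of 1.98 (edgeR adjusted p = 0.0568) and levels of 1.75 to 3.40 CPM in DMSO and 5.64 to 15.8 CPM in CDDO-Me. Its transcript is the poorest in GC among the members tested, at 33.1%, and its value was 1.15 after the correction.

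Of the 18 other DNAJC genes tested, 2 rose with CDDO-Me and 0 fell in the edgeR test, against 4.65% and 4.57% of all genes. After GC and length correction 0 rose and 1 fell, DNAJC9, against 4.03% and 3.71% of all genes. At an unadjusted p under 0.05 as counted, 2 were higher and 1, DNAJC9, was lower, against 13.4% and 12.6% of all genes. Limma also called DNAJC9 lower while DESeq2 did not. DNAJC10 (ENSG00000077232, chr2:182716041-182794464, plus strand), the endoplasmic reticulum disulfide reductase ERdj5, stood at 45.5, 51.4 and 43.3 CPM in DMSO 1 to 3, at 85.0, 121 and 80.3 CPM in CDDO-Me 1 to 3, and at 83.4, 37.3 and 67.1 CPM in PRL-295 1 to 3. The CDDO-Me libraries were all above DMSO, whereas PRL-295 spanned both. The rise with CDDO-Me was 2.04-fold (log2 1.03, SE 0.26, edgeR adjusted p = 0.0336), and it did not pass after GC and length correction, at 0.29 on the log2 scale; over 17 alternatives the adjusted p ran from 4.75e-08 to 0.137. DNAJC18 (ENSG00000170464, chr5:139408588-139444491, minus strand), a J protein of the endoplasmic reticulum membrane, stood at 3.53, 3.41 and 3.87 CPM in DMSO and at 11.7, 5.81 and 6.39 CPM in CDDO-Me 1 to 3. Its rise was 2.21-fold (log2 1.15, SE 0.31, edgeR adjusted p = 0.0443), called in 5 of 16 alternatives, with adjusted p from 0.00830 to 0.145. After GC and length correction it was 1.04 and did not pass (edgeR adjusted p = 0.0758). HSPA13, a microsomal HSP70 relative, lay just outside the threshold at 1.12 (edgeR adjusted p = 0.0511), and at 0.43 after the correction. DESeq2 called HSPA13 higher (adjusted p = 0.00630) and limma did not.

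HSPBP1 (ENSG00000133265, chr19:55262231-55280381, minus strand) stood at 144, 153 and 142 CPM in DMSO 1 to 3, at 117, 92.8 and 111 CPM in CDDO-Me 1 to 3, and at 117, 147 and 123 CPM in PRL-295 1 to 3. All CDDO-Me libraries lay below DMSO. It fell by 0.46 on the log2 scale (SE 0.13, edgeR adjusted p = 0.0471), and by 0.14 after GC and length correction, where it did not pass. Its transcript has 64.6% GC, and over 17 alternatives the adjusted p ran from 0.0225 to 0.430.

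**Figure D3:**
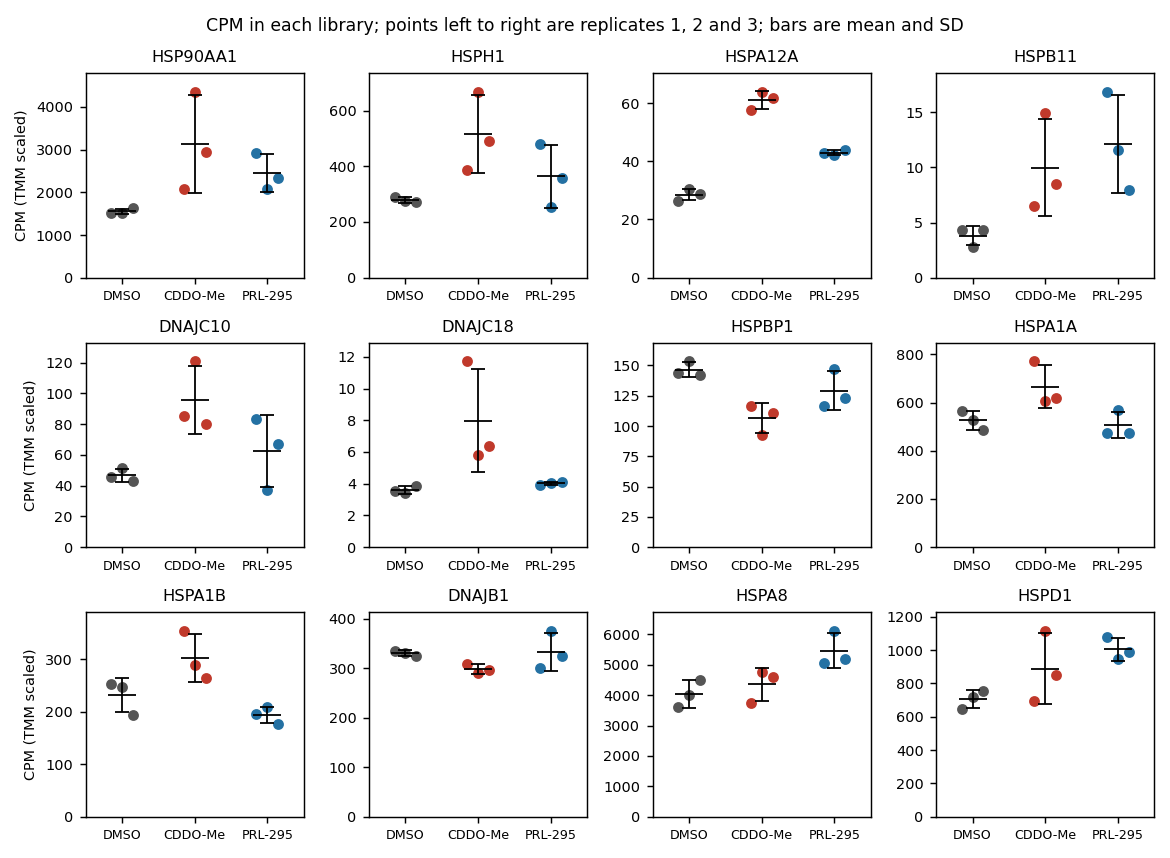
TMM-scaled CPM of 12 members in each of the 9 libraries; points are libraries, with the bars showing the mean and SD of 3, and each axis starts at 0. HSPA12A separates the 3 groups, HSP90AA1 and HSPH1 peak in CDDO-Me 2 at 4355 and 667 CPM, and DNAJB1 lies between 290 and 376 CPM throughout.

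The second comparison set PRL-295 against DMSO. No member passed the edgeR test with PRL-295, 0 of 58, where 0.684% of all genes tested did. At an unadjusted p under 0.05, 12 members were higher and 3 lower (20.7% and 5.17%, against 7.58% and 5.31% of all genes). The PRL-295 libraries all lay above DMSO for 17 members (29.3%, against 13.5% of all genes) and below for 5 (8.62%, against 13.7%). The median log2 fold change of the members was 0.11, beside -0.012 over all genes, and 0.034 after GC and length correction, and 34 members had values above 0 (58.6%, against 48.8% of all genes). The 95% interval of 41 of the 58 members lay within a 2-fold change either way.

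The 5 smallest p-values belonged to HSPA12A, HSPB11, DNAJC8, HSPA8 and HSPD1, none of which passed. HSPA12A had a log2 fold change of 0.59 (95% interval 0.31 to 0.86, edgeR adjusted p = 0.0663), with all 3 PRL-295 libraries above all DMSO libraries. HSPB11 had one of 1.67 (0.85 to 2.49, edgeR adjusted p = 0.0809). DNAJC8, a J protein associated with splicing factors, stood at 58.8, 70.5 and 71.0 CPM in DMSO and at 90.3, 120 and 84.7 CPM in PRL-295 1 to 3, a log2 fold change of 0.56 (0.23 to 0.90, edgeR adjusted p = 0.139), and of 0.33 after GC and length correction.

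For the 7 abundant members HSPA8, HSPD1, HSP90AB1, HSP90AA1, HSPA9, DNAJA1 and DNAJA2, every PRL-295 library lay above every DMSO library, though none was called. HSPA8 stood at 5071, 6115 and 5198 CPM in PRL-295 1 to 3, all above the DMSO maximum of 4509 CPM, with a log2 fold change of 0.44 (95% interval 0.16 to 0.71, edgeR adjusted p = 0.165). HSPD1 stood at 1077, 947 and 986 CPM in PRL-295 and at 644, 718 and 753 CPM in DMSO 1 to 3, a log2 fold change of 0.51 (0.17 to 0.85, edgeR adjusted p = 0.186). HSP90AB1 had a log2 fold change of 0.43 (0.09 to 0.77), HSP90AA1 of 0.66 (0.17 to 1.14), HSPA9 of 0.40 (0.13 to 0.67), DNAJA1 of 0.60 (0.20 to 1.00) and DNAJA2 of 0.40 (0.13 to 0.66). After GC and length correction all 7 were smaller, at 0.32 for HSPA8, 0.30 for HSPD1, 0.31 for HSP90AB1, 0.50 for HSP90AA1, 0.19 for HSPA9, 0.31 for DNAJA1 and 0.18 for DNAJA2. HSPB1 lay the other way, at -0.50 (-0.84 to -0.16, edgeR adjusted p = 0.200), and at -0.34 corrected. The inducible genes HSPA1A (-0.05, 95% interval -0.33 to 0.22), HSPA1B (-0.25, -0.56 to 0.06) and DNAJB1 (0.01, -0.21 to 0.24) had intervals that included 0.

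The count of 0 with PRL-295 depended on the fit, and which part of the fit mattered was not tested. A fit of the 6 DMSO and PRL-295 libraries alone called 6 members higher: HSP90AA1, HSPB11, DNAJA1, HSPD1, HSPA12A and HSPA14 on the row ENSG00000187522. That fit also called more of all genes higher, 3.21% in place of 0.462%. DESeq2 called 3 of these 6, HSPB11, HSPA12A and HSPA14 (3.00% of all genes higher), limma called 0 (0.512%), and the GC and length correction called 1, HSPA12A (1.03%). Leaving out CDDO-Me 1 or CDDO-Me 2 gave 7 and 4, where 2.53% and 1.25% of all genes were called higher. These libraries are not in the comparison but share its estimate of the spread, its filter and its scaling. HSPA14, a ribosome-associated HSP70 relative, is uncertain, because its rows ENSG00000187522 and ENSG00000284024 overlap on the same strand. The row ENSG00000187522 stood at 10.6, 13.2 and 14.3 CPM in DMSO and at 32.7, 25.2 and 28.2 CPM in PRL-295 1 to 3. In contrast, the row ENSG00000284024 was not called by the 6-library fit or by DESeq2. Its log2 fold changes with PRL-295 were 0.16 (edgeR adjusted p = 0.608) and 0.14 (DESeq2 adjusted p = 0.756).

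The comparisons with DMSO share the DMSO libraries, so the treatments were also set against each other. The doses differ, 250 nM for CDDO-Me and 10 µM for PRL-295, so a difference is between these treatments and not between the compounds at a matched dose. By edgeR, 0 of 58 members passed, where 1.59% of all genes tested did, and at an unadjusted p under 0.05 there were 5 higher with PRL-295 (8.62%, against 9.21% of all genes) and 10 lower (17.2%, against 8.01%). Values above 0 were found for 23 members (39.7%, against 49.5% of all genes). DESeq2 called 4 lower with PRL-295 (DNAJC6, HSPA12A, HSPA1B and HSPB8), where it called 3.10% of all genes lower, and limma 2 (HSPA12A and HSPA1B), where it called 1.16%. The groups did not overlap for 9 members with PRL-295 higher (15.5%, against 14.4% of all genes) and 7 with it lower (12.1%, against 10.2%), so these shares were near the background.

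The smallest p-values were those of HSPA1B and HSPA12A. HSPA1B had a log2 difference, PRL-295 minus CDDO-Me, of -0.64 (95% interval -0.95 to -0.33, edgeR adjusted p = 0.0505), and its 177 to 209 CPM in PRL-295 lay below the 265 to 354 CPM in CDDO-Me. For HSPA12A it was -0.51 (-0.78 to -0.23, edgeR adjusted p = 0.0723), for HSPB8 -2.52 (-4.12 to -0.93), for DNAJC6, the clathrin-uncoating auxilin, -0.70 (-1.18 to -0.22), for DNAJC18 -0.99 (-1.67 to -0.31) and for HSPA1A -0.40 (-0.67 to -0.12). After GC and length correction HSPA1A (-0.57), HSPA1B (-0.82) and HSPA12A (-0.51) were called lower with PRL-295 and DNAJC19 (0.95) higher, where 1.72% of all genes were called lower and 1.84% higher. HSPA1B was called in 6 of 17 alternatives, with adjusted p from 0.000834 to 0.257, and HSPA12A in 4, from 0.00891 to 0.287. HSP90AA1 had a difference of -0.35 (-0.83 to 0.13), HSPH1 of -0.50 (-1.002 to -0.0040), HSPA8 of 0.33 (0.05 to 0.60) and DNAJB1 of 0.16 (-0.06 to 0.39), and none of these passed.

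In 1 test per gene for any difference among the 3 groups, 4 of 58 members passed (6.90%, against 5.68% of all genes): HSPA12A (edgeR F test adjusted p = 0.00188), HSPA1B (0.0489), HSPB11 (0.0492) and HSP90AA1 (0.0495).

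Fold changes of the members followed GC content. Across the 58 members the correlation of log2 fold change with GC content was -0.454 for CDDO-Me and -0.424 for PRL-295 against DMSO, and -0.363 and -0.298 across all 16239 genes; genes share libraries and are not independent, so these are descriptions. After GC and length correction the correlations across members were -0.0326 and -0.146. The 29 members below the median GC content had a median log2 fold change of 0.37 with CDDO-Me, and the 29 above it -0.016; corrected, the medians were 0.10 and 0.095. With CDDO-Me, the corrected fit called 6 members higher (HSP90AA1, HSPA12A, HSPA1A, HSPA1B, HSPB11 and HSPH1) and 2 lower (DNAJC19 and DNAJC9, a histone cochaperone). It called 4.03% of all genes higher and 3.71% lower. Of the 7 calls made as counted, 4 remained and 3 were lost, DNAJC10, DNAJC18 and HSPBP1. CDDO-Me 2, the library with the steepest trend, was the highest of all 9 libraries for 21 of 58 members (36.2%, against 19.8% of all genes).

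**Figure D4:**
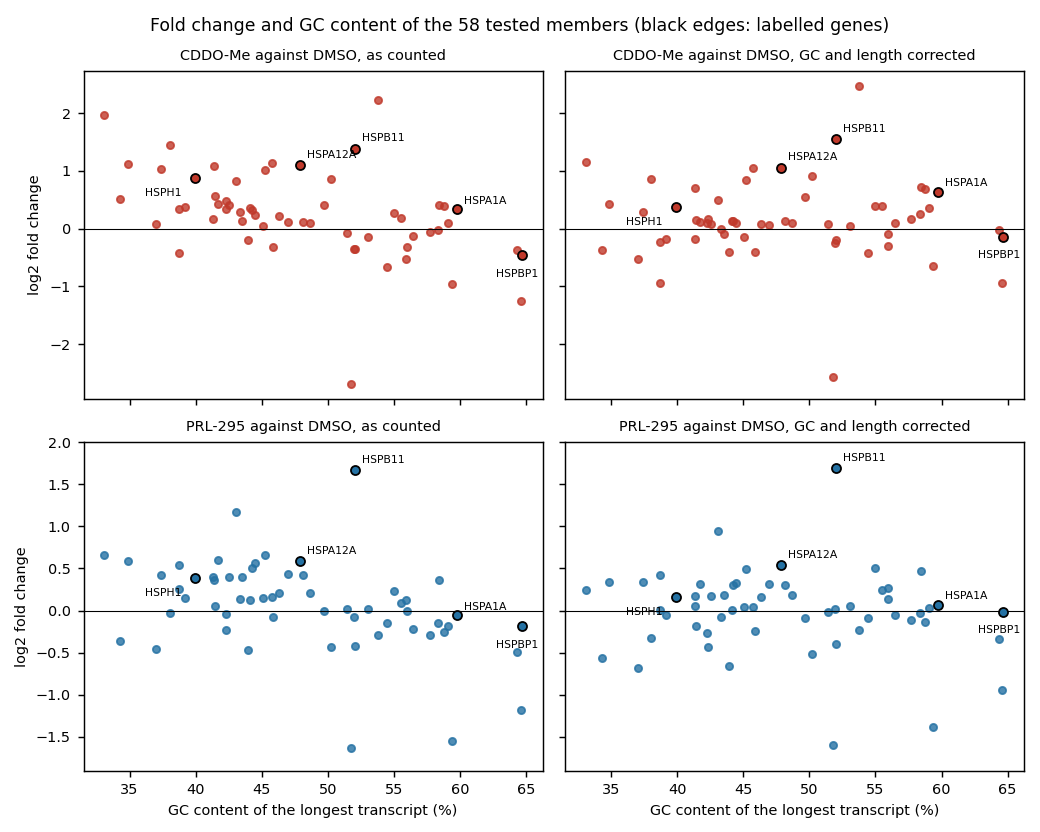
Log2 fold change of the 58 tested members against the GC content of their longest transcript, for CDDO-Me (top) and PRL-295 (bottom) against DMSO, as counted (left) and after GC and length correction (right). The downward slope on the left, a correlation of -0.454 for CDDO-Me, is nearly absent on the right, at -0.0326, while HSPA12A and HSPB11 keep their height and HSPA1A moves up from 0.34 to 0.64.

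A panel of 13 members known as HSF1 targets (HSPA1A, HSPA1B, HSPA4L, HSPA6, HSPA8, HSPB1, HSPD1, HSPE1, HSPH1, HSP90AA1, HSP90AB1, DNAJA1 and DNAJB1) had 2 called higher with CDDO-Me, HSP90AA1 and HSPH1, and 0 lower, against 4.65% and 4.57% of all genes; after GC and length correction 4 were higher, against 4.03%. DESeq2 called 3 of the panel higher with CDDO-Me (HSP90AA1, HSPA4L and HSPH1), and limma 1, HSP90AA1, of the 11 it covered. At an unadjusted p under 0.05 in edgeR, 6 were higher and 1 lower, against 13.4% and 12.6% of all genes. The median log2 fold change of the panel was 0.39, and 0.38 corrected, against 0.0078 over all genes. Of the 13, 11 were above 0, as were 50.5% of all genes. With PRL-295, 0 were called by edgeR, DESeq2 or limma, and 5 were higher and 1 lower at an unadjusted p under 0.05, against 7.58% and 5.31% of all genes. The median was 0.37, and 0.16 after GC and length correction, and 8 of 13 were above 0, as were 48.8% of all genes. None of the heat shock factor genes HSF1, HSF2, HSF4 and the factor-binding gene HSBP1 was called with either compound by edgeR, DESeq2 or limma. At an unadjusted p under 0.05 in edgeR 1 was higher with CDDO-Me, against 13.4% of all genes. With PRL-295 1 was higher and 1 lower, against 7.58% and 5.31% of all genes. By edgeR, 9.22% of all genes were called with CDDO-Me and 0.684% with PRL-295.

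Other genes of the folding machinery that are not members gave few calls. None of the 3 calls by edgeR with CDDO-Me below remained after GC and length correction. Of 19 cochaperones of HSP70 and HSP90, 0 rose and 1 fell with CDDO-Me, against 4.65% and 4.57% of all genes. The fallen gene was CDC37, the kinase-specific partner of HSP90, lower by 0.44 on the log2 scale (edgeR adjusted p = 0.0260). At an unadjusted p under 0.05 in edgeR, 2 were higher and 3 lower, against 13.4% and 12.6% of all genes. DESeq2 and limma also called CDC37 alone. With PRL-295 edgeR called 0 of the 19, against 0.684% of all genes. At an unadjusted p under 0.05, 2 of them were higher, against 7.58% of all genes. DESeq2 called 1 higher and limma 0, against 3.00% and 0.512% of all genes. BAG3, a cochaperone gene that HSF1 induces, stood at 446 to 454 CPM in DMSO and 358 to 451 CPM in CDDO-Me and was not called.

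Of 14 subunits of the chaperonin TRiC and of prefoldin, 1 rose with CDDO-Me by edgeR and 0 fell, against 4.65% and 4.57% of all genes. The risen gene was PFDN4, with a log2 fold change of 2.57 (edgeR adjusted p = 0.0493) and a range of 3.56 to 26.5 CPM within CDDO-Me. At an unadjusted p under 0.05 in edgeR, 3 of the 14 were higher and 2 lower, against 13.4% and 12.6% of all genes. DESeq2 called 2 higher with CDDO-Me, CCT8 and PFDN4, and limma 0. With PRL-295 edgeR called 0 of these 14, against 0.684% of all genes. At an unadjusted p under 0.05, 5 were higher and 0 lower, against 7.58% and 5.31% of all genes. DESeq2 called 2 higher and limma 0, against 3.00% and 0.512% of all genes. Of the 14, 13 had values above 0 with PRL-295, as had 48.8% of all genes. The median log2 fold change of the 14 was 0.30, beside -0.012 over all genes. After GC and length correction the median was 0.21, and 1 of the 14, CCT8, was called higher, against 1.03% of all genes. Of the 7 endoplasmic reticulum chaperones, 1 rose with CDDO-Me by edgeR and 0 fell, against 4.65% and 4.57% of all genes. The risen gene was DNAJC3 (0.84, edgeR adjusted p = 0.0296). DESeq2 called DNAJC3 and HSP90B1 higher and SDF2L1 lower, and limma DNAJC3 higher and SDF2L1 lower. At an unadjusted p under 0.05 in edgeR, 3 were higher and 1 lower, against 13.4% and 12.6% of all genes. With PRL-295 edgeR, DESeq2 and limma called 0 of the 7, where edgeR called 0.684% of all genes. At an unadjusted p under 0.05 in edgeR 1 of the 7 was higher, against 7.58% of all genes. SERPINH1, the collagen chaperone HSP47, had log2 fold changes of -0.10 with CDDO-Me and -0.15 with PRL-295 (edgeR adjusted p = 0.585 and 0.5996), which became 0.14 and -0.0066 after GC and length correction. CRYAB, a small heat shock protein gene, stood at 0.594 CPM or less in every library and was not called with either compound, at -1.08 and -1.16 on the log2 scale (edgeR adjusted p = 0.628 and 0.789).

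The 14 members that were not tested had at most 21 reads in any library. They were HSPB2, HSPB3, HSPB6, HSPB7, DNAJB7, DNAJB8, DNAJB13, DNAJC5B, DNAJC5G, DNAJC12 and DNAJC28, and the readthrough genes DNAJC25-GNG10, HSPB2-C11orf52 and HSPE1-MOB4. HSPB2, DNAJB8, DNAJC5G, DNAJC12 and the readthrough genes had no read in any of the 9 libraries, which leaves room for levels up to 0.0922 to 0.127 CPM, the worth of 3 counts in each library. Such floors cover counting error only. HSPA12B, HSPB9 and DNAJC22 were tested at the edge of detection: with CDDO-Me their 95% intervals of the log2 fold change ran from -3.63 to 1.13, from -3.94 to 2.03 and from -5.47 to 0.092, so changes of the size called in other members were not detectable in them at this depth.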

How the data were processed

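Libraries were 9, with 3 per group, made from HaCaT RNA and read as pairs, per the labels. The authors aligned reads with STAR 2.5 and counted them per gene with HTSeq 0.6.1 on hg38, and the deposited values are whole-number counts, per the labels' protocols. The deposited FPKM were calculated by the authors from count and gene length, per the labels' protocols, and each equals its count divided by gene length and library total within 0.1%. The annotation release and the strand setting of the counting are not given in the sources used here. DMSO is named in the labels of the control only.

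Counts were tested in R 4.3.3 with edgeR 4.0.16 (quasi-likelihood, filterByExpr by group, TMM scaling, all 9 libraries in 1 fit, Benjamini-Hochberg over 16239 genes, threshold 0.05). CPM are TMM scaled and compare libraries within a gene; FPKM compare genes. Alternatives were DESeq2 1.42.0, limma 3.58.1 on log2 of the deposited FPKM plus 1 (FPKM of at least 1 in at least 3 libraries), RLE scaling, no filter, 6-library fits, each library left out, a replicate block, and offsets for GC content and length (lowess, span 0.3, from the longest GENCODE 29 transcript). The edgeR step was tested on simulated data. Promoters are from RefSeq (GRCh38.p14). Libraries held 23383800 to 32942156 counts, which limits most the members under 1 CPM.

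Members and lists were chosen with earlier results of these data known. Named were 13 fixed genes, each member past the threshold (the 5 smallest p where fewer than 5 passed) and the highest FPKM per role; other members named with values were chosen after their values were seen. 1 further gene of the lists is not reported here.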

Additional observations from a re-analysis of the deposited data

How the results depend on the processing

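Counts of called members depended on the setting. The share of all genes called under the same setting is given above for only some of these fits. For the others, a count does not show whether members moved more than all genes did. For CDDO-Me against DMSO, 6 members were higher and 1 lower; DESeq2 gave 10 and 2, no filter 13 higher, the replicate block 1 and 0, limma 2 and 3, RLE scaling 0 lower, the 6-library fit 0 lower, and the GC and length correction 2 lower. Leaving out each library gave 1 to 13 higher and 0 to 2 lower, where 1.17% to 9.08% of all genes were called higher and 1.20% to 7.43% lower. For PRL-295 against DMSO, 0 were higher and 0 lower; DESeq2 gave 3 higher, no filter 9 higher and 1 lower, the 6-library fit 6 higher, and the GC and length correction 1 higher with or without the block, while leaving out each library gave 0 to 7 higher. For PRL-295 against CDDO-Me, 0 and 0 became 4 lower with DESeq2, 1 higher and 6 lower with no filter, 1 lower with the replicate block, 2 lower with limma, and 1 higher and 3 lower with the GC and length correction, with or without the block. The cause of these moves was not tested. Same-numbered libraries did not deviate together (correlations of -0.119 to 0.114), so the replicate number is not taken as a pairing.

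Several fold changes changed sign under some settings. With the GC and length correction, alone and with the block, the log2 fold changes for CDDO-Me were 0.17 and 0.17 for DNAJC5, -0.10 and -0.10 for HSPA9, and 0.043 and 0.043 for DNAJB1, and for PRL-295 0.071 and 0.074 for HSPA1A. With limma DNAJB1 stood at -0.0196 for PRL-295. HSPA4, PRL-295 against CDDO-Me, stood at 0.0049 with no filter, 0.037 with the block, 0.085 and 0.096 with the correction without and with the block, and 0.010 with limma. Leaving out each library gave -0.00031 to 0.25 for HSP90AB1, -0.27 to 0.054 for DNAJC5 and -0.66 to 1.40 for HSPE1 with CDDO-Me, and -0.076 to 0.089 for DNAJB1 and -0.14 to 0.028 for HSPA1A with PRL-295. Between the compounds it gave -0.019 to 0.38 for DNAJA1, -1.82 to 0.24 for HSPE1, -0.19 to 0.33 for HSPA4, -0.20 to 0.31 for HSPA6 and -0.12 to 0.021 for the median of the members. Of the other values with a library left out, 493 kept their direction and their side of the threshold, 33 lost and 13 gained a call, and 1 moved; under the other settings these were 414, 20, 39 and 2.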
